A study of Drosophila melanogaster with 12 samples.

Results

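The cuticle protein genes of *Drosophila melanogaster* were examined in larvae mutant for the estrogen-related receptor dERR. Genes were chosen by symbol alone, as those that begin with Cpr and a number, Lcp, Ccp, Pcp, Edg, Acp65 or obst-. Of 24134 genes listed, 107 matched: 70 Cpr genes, 17 Lcp genes, 8 obst genes, 7 Ccp genes, 3 Edg genes, *Pcp* and *Acp65Aa*.

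RNA-seq libraries were made from 12 samples of mid-L2 larvae raised at 25 °C on molasses agar with yeast, aged 60 h by the labels and several hours older by the study's methods. Whole animals and dissected fat bodies were each sampled 3 times in *dERR1/2* mutants, which carry a different mutant allele of *dERR* on each copy of the gene, and 3 times in *dERR1/+* heterozygous controls, all on a *w1118* background. The controls carry the *dERR1* allele too, and by the methods both genotypes had *dERR1* mothers. What differs by design is the copy of chromosome 3 from the father, with the *dERR2* allele or from *w1118* males. The fat bodies came from pools of dissected larvae that the methods call technical replicates, and no source shows that the whole animal samples came from separate cultures, so the p-values measure only the spread between these samples.

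The insect cuticle is an extracellular matrix of chitin fibres and proteins that the epidermis, trachea, foregut and hindgut secrete and replace at each moult. Most Cpr, Lcp and Ccp proteins share the Rebers and Riddiford consensus, a chitin-binding domain, and different members are made in different body regions and at different points of the moulting cycle. Obstructor proteins bind chitin through a different domain, of the type found in peritrophic matrix proteins.

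Values are regularized log2 (rlog) values, in which a difference of 1 is a doubling for a well-expressed gene and values near or below 0 come from few or no reads. A gene was tested when the mean of at least 1 of the 4 groups was 3.32 or more, the log2 of 10. Of the 107 cuticle genes, 10 were listed at 0 in every sample, 32 stayed below this level and 65 were tested, among 10069 genes in all. All 65 reached the level in whole animals. Of these, 57 reached it in both genotypes and 8 in control whole animals alone, and those 8 had to be lower in the mutants to some degree because of how they passed.

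The transcript of *dERR* itself did not separate the genotypes in whole animals. It stood at 8.16, 8.39 and 8.37 in controls and at 8.21, 8.28 and 8.01 in mutants, and the log2 fold change was -0.14 (adjusted p = 0.96, limma). In fat bodies the log2 fold change was -0.53 (adjusted p = 0.095, limma). The transcript level is therefore no check of the genotype labels. Replicates of a group correlated with Pearson r of 0.958 to 0.981 across the genes tested, which are not independent replicates. The cuticle genes varied more than most: the median SD between replicates was 0.391 among whole animal controls and 0.419 among whole animal mutants, against 0.134 and 0.164 over all genes tested.

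In whole animals, 7 of the 65 cuticle genes fell in mutants and 3 rose at an adjusted p of 0.05 over all genes tested. Over all genes, 2.56% fell and 0.725% rose. The 7 that fell were *Cpr65Eb*, *Cpr23B*, *Cpr66Cb*, *Cpr30F*, *Cpr66D*, *Ccp84Ac* and *Ccp84Af*, and all 7 were among the 8 genes that passed the filter through the controls alone. Because that choice favours genes high in controls, nothing is read from the number of falls against the share over all genes, nor from their passing limma's treat test for a change of more than 1 on the log2 scale, as all 7 did and 1.11% of all genes. Of the 57 genes at the tested level in both genotypes, 0 fell and 3 rose (limma). That choice leaves out genes that fell below the level in mutants, so nothing is read from the 0. The share over all genes for this choice was not computed. The 3 that rose were *Lcp1*, *Cpr100A* and *Cpr11B*, and none passed that test, which 0.119% of all genes passed in this direction. The other 55 did not pass. Across the 65 genes 42 had a positive log2 fold change and 23 a negative one, as did 48.4% of all genes, and the median was 0.26 against 0.01 over all genes. In the 6 whole animals, all mutants lay below all controls for 13 cuticle genes and above them for 19, where over all genes 13.5% lay below and 13.7% above. The 13 include the 8 genes that passed the filter through the controls alone, so nothing is read from the 13 against that share.

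**Figure D1:**
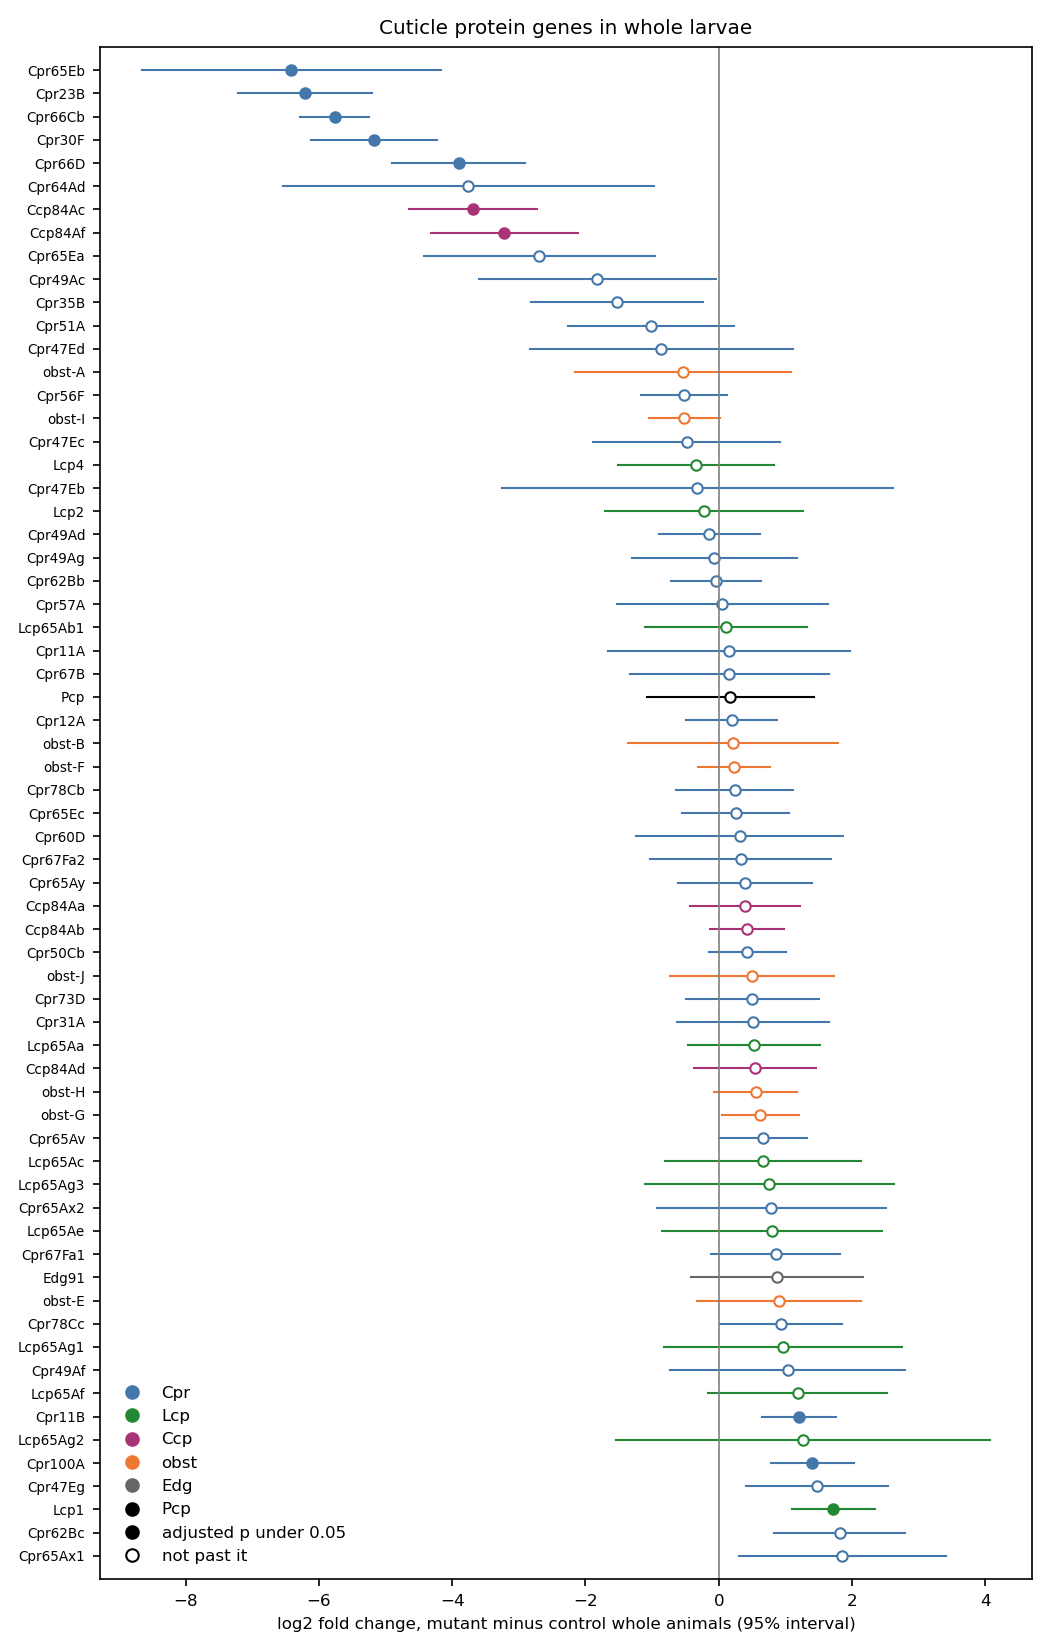
Log2 fold change (mutant minus control whole animals, horizontal axis) of the 65 cuticle genes tested, ordered by value and coloured by family, with 95% intervals from limma; filled points have an adjusted p under 0.05. The 7 filled points on the left range from -6.41 to -3.22, and the 3 on the right from 1.21 to 1.72.

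The deepest falls were of genes whose transcripts were near the bottom of the scale in the mutants. *Cpr65Eb* stood at 6.90, 7.46 and 6.95 in control whole animals and at 2.22, 1.19 and -1.32 in mutants. The groups were far apart, and the mutants differed among themselves more than the controls did. On the rlog scale the difference was -6.41 (SE 1.01, adjusted p = 0.0043, limma).

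*Cpr23B* stood at 5.04, 4.95 and 3.00 in controls and at -1.69, -2.17 and -1.77 in mutants. *Cpr66Cb* stood at 3.63, 4.34 and 3.78 in controls and at -1.66, -2.13 and -1.75 in mutants. These were the 2 cuticle genes with all 3 mutant whole animals below 0, so that no fold is given for them. Their differences on the rlog scale were -6.21 for *Cpr23B* (adjusted p = 1.8e-05, limma) and -5.76 for *Cpr66Cb* (adjusted p = 2.3e-07, limma). Control replicate 3 was the lowest control for *Cpr23B*. The fit takes 1 spread per gene from all 12 samples. Of the 10 called genes, 9 were below 0 in all 6 fat bodies. For *Cpr23B* the SD was 1.15 and 0.26 in control and mutant whole animals but 0.013 and 0.096 in fat bodies. This lowers the SE and the p. The highest adjusted p under an alternative was 0.024 for *Cpr23B*, 0.033 for *Cpr66Cb* and 0.027 for *Cpr66D* (limma).

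*Cpr30F* stood at 5.79, 6.69 and 4.77 in controls and at 0.94, 0.77 and 0.02 in mutants, which is a difference of -5.17 (SE 0.43, adjusted p = 4.5e-05, limma). *Cpr66D* stood at 5.02, 5.70 and 4.44 in controls and at 0.95, 0.29 and 2.20 in mutants, a difference of -3.90 (SE 0.45, adjusted p = 0.00047, limma). In both genes every mutant was lower than every control by more than the spread within either group.

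In the Ccp family, genes of a cluster on chromosome 3R, 2 of the 5 genes tested fell. Both passed the filter through the controls alone, so nothing is read from this count against the 2.56% of all genes that fell. *Ccp84Ac* stood at 5.41, 6.52 and 4.61 in controls and at 2.41, 1.71 and 1.36 in mutants, a difference of -3.69 (SE 0.44, adjusted p = 0.00054, limma). *Ccp84Af* stood at 4.11, 5.05 and 2.84 in controls and at 1.31, 1.04 and -0.01 in mutants, a difference of -3.22 (SE 0.50, adjusted p = 0.0039, limma). The groups did not overlap for either gene. The other genes tested, *Ccp84Aa*, *Ccp84Ab* and *Ccp84Ad*, had log2 fold changes of 0.40, 0.43 and 0.55 and did not pass. *Ccp84Ae* and *Ccp84Ag*, named after their values were seen, were below the tested level and also had every mutant below every control.

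The rises were smaller. *Lcp1*, which encodes a larval cuticle protein, stood at 3.75, 4.17 and 4.16 in controls and at 6.32, 5.42 and 5.51 in mutants, and the log2 fold change was 1.72 (SE 0.28, adjusted p = 0.0055, limma). *Cpr100A* stood at 5.45, 5.03 and 4.86 in controls and at 6.31, 6.22 and 7.01 in mutants, and the log2 fold change was 1.40 (SE 0.28, adjusted p = 0.019, limma). *Cpr11B* stood at 6.02, 6.45 and 5.92 in controls and at 7.49, 7.03 and 7.50 in mutants, and the log2 fold change was 1.21 (SE 0.25, adjusted p = 0.024, limma). Every mutant was above every control in each of the 3 genes. *Lcp1* kept its call with each whole animal sample left out and with no filter, and the other genes did not. *Cpr100A* lost it without control replicate 2 (adjusted p = 0.072), control replicate 3 (0.081) or mutant replicate 3 (0.063) and with no filter (0.056, limma). *Cpr11B* lost it without control replicate 1 (adjusted p = 0.097), control replicate 3 (0.11), mutant replicate 1 (0.086) or mutant replicate 3 (0.096) and with no filter (0.073, limma).

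**Figure D2:**
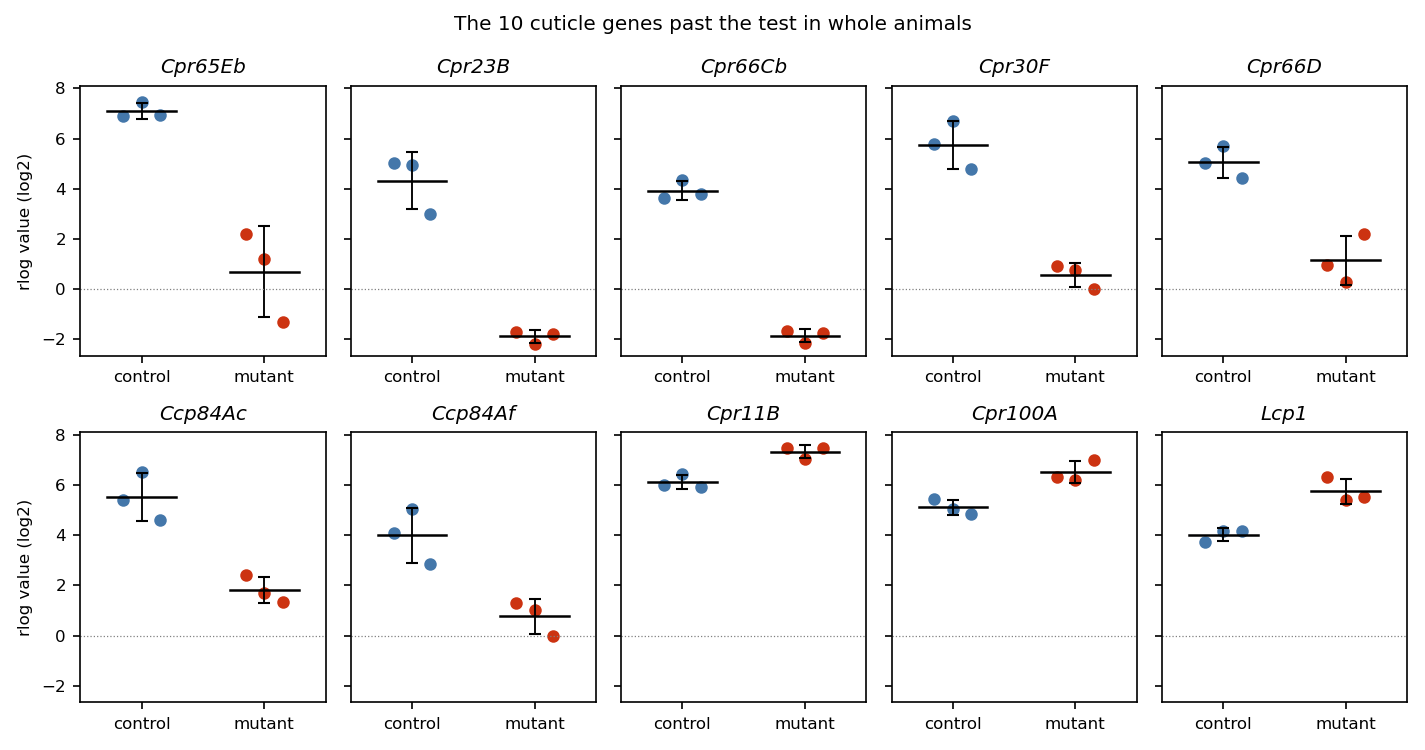
Rlog values (log2, vertical axis) of the 10 cuticle genes past the test in each of 3 control (blue) and 3 mutant (red) whole animal samples, with the group mean (line) and SD (bars); the dotted line marks 0. The groups are apart for every gene, and for *Cpr23B* and *Cpr66Cb* all 3 mutants lie below 0.

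The filter decides how many falls are counted. With no filter 12 cuticle genes fell, the additional 5 being *Ccp84Ae*, *Ccp84Ag*, *Cpr49Ah*, *Cpr5C* and *Cpr64Ab*, all below 3.32 in every group. With a filter at the log2 of 50 there were 2, since 5 of the 7 were then not tested. Both sets of names were read after their values were seen.

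Several cuticle genes had large differences that did not pass, and are named here after their values were seen. *Cpr64Ad* stood at 10.50, 10.67 and 10.10 in controls and at 4.95, 8.04 and 7.02 in mutants, a difference of -3.76 with a 95% interval from -6.54 to -0.98 (adjusted p = 0.20, limma). The groups did not overlap. It passed with each tissue fitted alone (adjusted p = 0.014), with array weights (0.01) and without fat body control replicate 7 (0.009, limma), the last being the sample where it stood at 5.61 against -0.23 and 0.89 in the other control fat bodies. *Cpr65Ea*, the eighth gene that passed the filter through the controls alone, differed by -2.69 (adjusted p = 0.12, limma). *Cpr62Bc* differed by 1.82 (adjusted p = 0.057, limma) and *Cpr47Eg* by 1.47 (adjusted p = 0.18, limma), both with every mutant above every control.

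None of the most abundant cuticle transcripts passed the test. Per kilobase of transcript, the highest log2 levels in control whole animals were 14.09 for *Lcp65Ag1*, 14.07 for *Lcp65Ag2* and 13.99 for *Lcp65Ag3*, then 13.06 for *Cpr65Ax1* and 12.88 for *Cpr65Ax2*. These are near-identical copies whose reads cannot be divided with certainty, as with *Lcp65Ab1* and *Lcp65Ab2*, the latter listed at 0, and *Cpr67Fa1* and *Cpr67Fa2*. Of the 15 cuticle genes with a control mean of 10 or more, 0 were called in whole animals by limma. With each tissue fitted alone 4 of them were called, *Cpr47Eg*, *Cpr49Ac*, *Cpr64Ad* and *Lcp65Ag2*, and with array weights 2, *Cpr49Ac* and *Cpr64Ad*. At an unadjusted p of 0.05, 9 of all 65 cuticle genes were higher and 11 lower, against 4.43% and 6.66% of all genes. The 11 include the 7 called falls, which passed the filter through the controls alone, so nothing is read from the 11 against that share.

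The obst family encodes proteins that bind chitin in the matrix, among them *obst-A*, needed for larval chitin matrix organization, and *obst-E*, needed for body shape at the pupal stage. All 8 members were tested and none passed in whole animals. Log2 fold changes were -0.54 for *obst-A*, 0.22 for *obst-B*, 0.91 for *obst-E*, 0.23 for *obst-F*, 0.62 for *obst-G*, 0.55 for *obst-H*, -0.52 for *obst-I* and 0.50 for *obst-J*. For *obst-G* every mutant was above every control, and for *obst-I* every mutant was below. The 95% interval for *obst-A* ran from -2.16 to 1.08 and that for *obst-E* from -0.33 to 2.14, and both intervals hold a change of 1 in size.

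By family, the Cpr genes had 5 falls and 2 rises among 39 tested, with a median log2 fold change of 0.16. Over all genes 2.56% fell and 0.725% rose. The 5 falls were of genes that passed the filter through the controls alone, so nothing is read from them against that share. The Lcp genes had 1 rise and no fall among 11 tested, with a median of 0.76. Every mutant was above every control for 7 of the 11, as for 13.7% of all genes. The Ccp genes had a median of 0.40 and a range from -3.69 to 0.55, and the obst genes a median of 0.36. The genes not tested were 31 Cpr genes, 6 Lcp genes, 2 Ccp genes, 2 Edg genes and *Acp65Aa*, named as an adult cuticle protein gene.

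Of the other larval cuticle genes, *Lcp2* had a log2 fold change of -0.22 and *Lcp4* one of -0.34, where their neighbour *Lcp1* rose. *Edg91*, a gene named for its dependence on ecdysone, had 0.88, and *Pcp*, which encodes a pupal cuticle protein, had 0.17. None of these 4 passed the test (adjusted p of 0.73 or more, limma).

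By the Ensembl annotation of the Release 6 genome, 77 of the 107 genes lie in 15 clusters, taken as runs of genes with gaps of at most 20000 bases, and 53 lie on chromosome arm 3L. The 3L cluster from *Lcp65Ag3* to *Cpr65Az* spans positions 6130386 to 6161589 and holds 19 cuticle genes. All 12 that were tested had a positive log2 fold change, from 0.11 to 1.85 with a median of 0.78. Every mutant was above every control for 7 of them, as for 13.7% of all genes. Those 7 are *Cpr65Ay* and the Lcp genes already counted by family, *Lcp1* aside, so the 2 counts are not separate results. None of the 12 passed the test. Copies in the cluster share reads, and all 12 genes were read in the same 6 samples.

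Levels in the cluster also varied between replicates. *Lcp65Af* stood at 10.49, 9.71 and 9.85 in controls and at 10.88, 10.85 and 11.88 in mutants, and *Lcp65Ac* at 8.97, 8.69 and 8.97 in controls and at 9.75, 8.97 and 9.89 in mutants. *Cpr65Ax1* had the largest difference of the 65 genes on the positive side, 1.85, but stood at 11.93, 10.18 and 12.99 in controls and at 12.39, 13.30 and 14.97 in mutants, so that the groups overlapped (adjusted p = 0.29, limma). These 3 genes are named after their values were seen. Mutant replicate 3 was the highest of the 6 whole animals for 23 of the 65 cuticle genes, control replicate 2 for 15 and mutant replicate 1 for 13. Mutant replicate 2 was highest for 2. The shares over all genes were not computed, so these counts are not read as particular to cuticle genes.

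In other clusters neighbours differed. On 3L, *Cpr65Eb* fell and *Cpr65Ea* lay at -2.69, while *Cpr65Ec* lay at 0.26. The 7 genes that fell were spread over chromosome arms 2L, 3L and 3R, 3 of them in clusters, and their transcripts were 580 to 1104 bases long, where the median of the 65 was 817. *Cpr66Cb* and *Cpr66D* lie 150 and 454 kb from *dERR*, on 3L of the chromosome that differs by design between the genotypes. Within 500 kb of *dERR*, 110 genes were tested, 4 of which fell (3.64%) and 0 of which rose by limma, the 2 cuticle genes included. Over all genes 2.56% fell and 0.725% rose, so these counts are not read as particular to the region. Of the 7 genes that fell, 5 lie on chromosome 3, as do 38 of the 65 tested. For genes on that chromosome, an effect of linked sequence cannot be told apart from that of dERR.

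**Figure D3:**
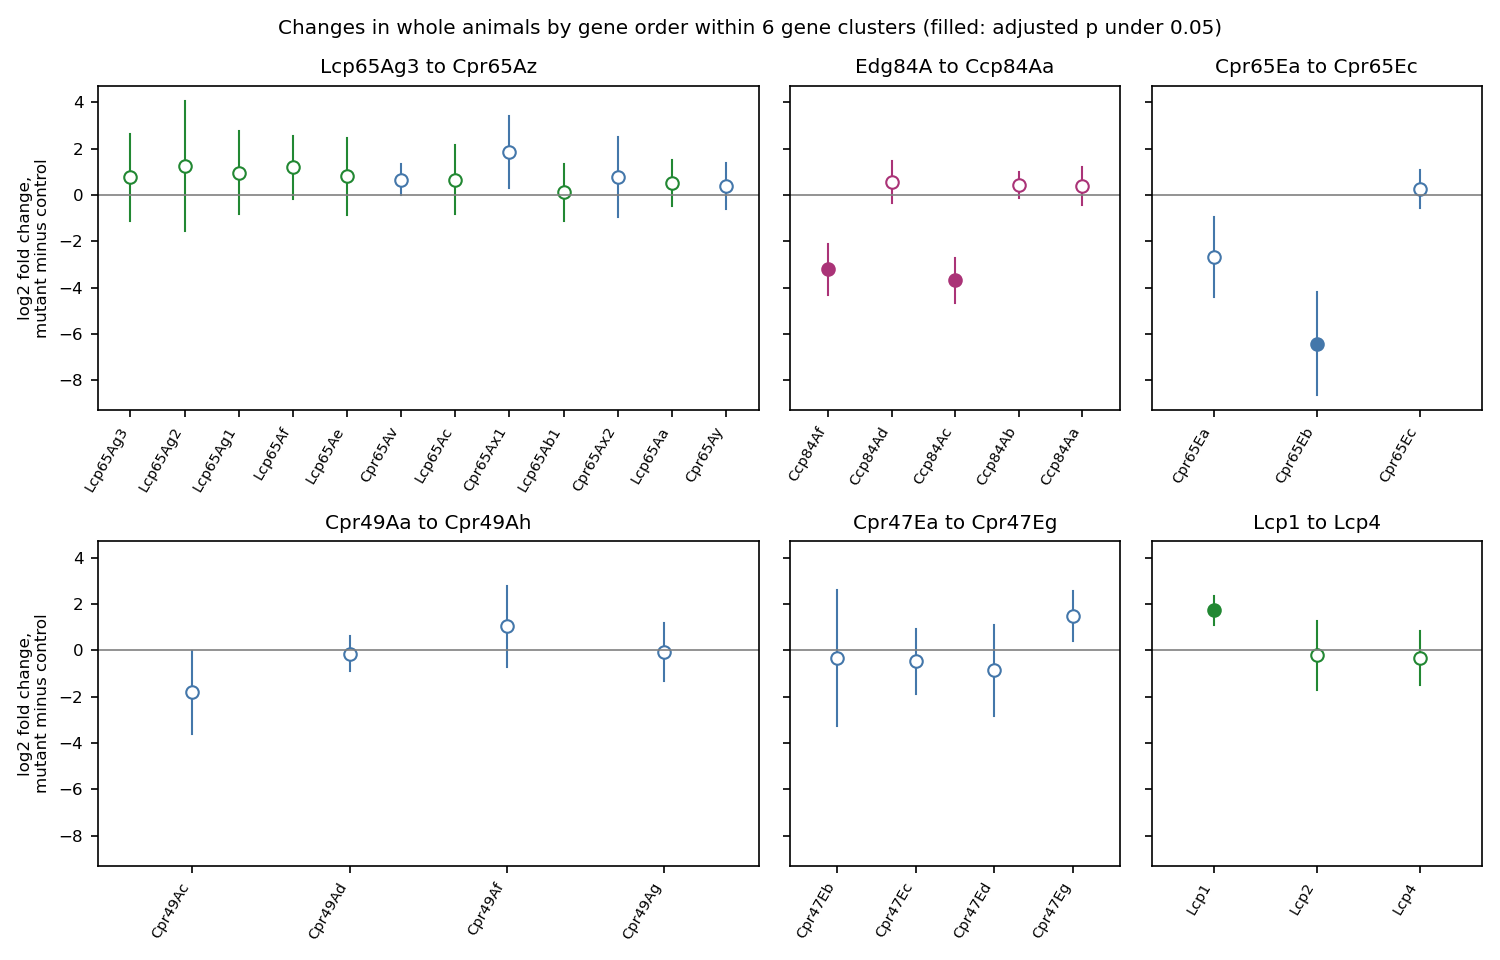
Log2 fold change in whole animals (vertical axis, with 95% intervals from limma) of the tested genes in 6 clusters, placed in chromosomal order along the horizontal axis and not to scale; blue marks Cpr, green Lcp and purple Ccp genes, and filled points have an adjusted p under 0.05. All 12 genes of the *Lcp65Ag3* to *Cpr65Az* cluster lie above 0, while *Ccp84Af*, *Ccp84Ac* and *Cpr65Eb* lie far below it. *Cpr65Ea*, beside *Cpr65Eb*, also lies well below 0 without passing the test, and the other tested genes of their clusters lie above 0.

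Genes that make, cut, harden or shape cuticle were taken as lists. Over all genes tested, 2.56% fell and 0.725% rose in whole animals. None of 13 tested genes of chitin synthesis and assembly and none of 14 chitinases and chitinase-like genes passed in whole animals. Of 13 genes of sclerotization and pigment, *stw*, a laccase gene, fell by 1.36 on the log2 scale (adjusted p = 0.016, limma) and *Pu*, which encodes GTP cyclohydrolase, rose by 0.74 (adjusted p = 0.0091, limma).

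Of 13 epidermal and tracheal matrix genes, 4 fell and none rose, where over all genes 2.56% fell and 0.725% rose. All 4 encode zona pellucida domain proteins of the apical matrix. *dyl* stood at 10.93, 11.18 and 9.79 in controls and at 4.96, 3.52 and 3.40 in mutants, and its log2 fold change was -6.67 (adjusted p = 0.00045, limma). The others were *m* at -2.40, *zye* at -2.07 and *tyn* at -1.56, and the median of the 13 was -1.19. Of 15 moulting and ecdysone response genes, 2 fell and none rose, against the same shares over all genes. *ImpL1*, an ecdysone-inducible gene, differed by -4.41 (adjusted p = 0.039, limma) and *Hr4*, which encodes a nuclear receptor, by -1.65 (adjusted p = 0.031, limma). The other 9 matrix genes and 13 moulting genes did not pass. Some of these matrix genes were lower, such as *neo* at -2.21, *mey* at -0.82 and *dpy* at -0.62. Others lay near 0, such as *pio* at -0.05 and *drd* at 0.01, as did the moulting gene *E23* at 0.11. These uncalled genes are named after their values were seen. Whether the larvae of the 2 genotypes were at the same point of the moulting cycle was not tested. Markers of other tissues differed between the same samples. The median level of 14 midgut markers was 12.35, 11.76 and 11.83 in mutant whole animals and 11.19, 11.05 and 11.14 in controls, and 1 of the 14 rose. That of 12 fat body markers was 10.13, 10.51 and 10.23 in mutants and 11.40, 10.96 and 11.76 in controls, and 1 of the 12 fell and 2 rose. Their part in the changes of the cuticle genes was not tested, and in bulk samples fewer cells of a type and less RNA per cell cannot be told apart.

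**Figure D4:**
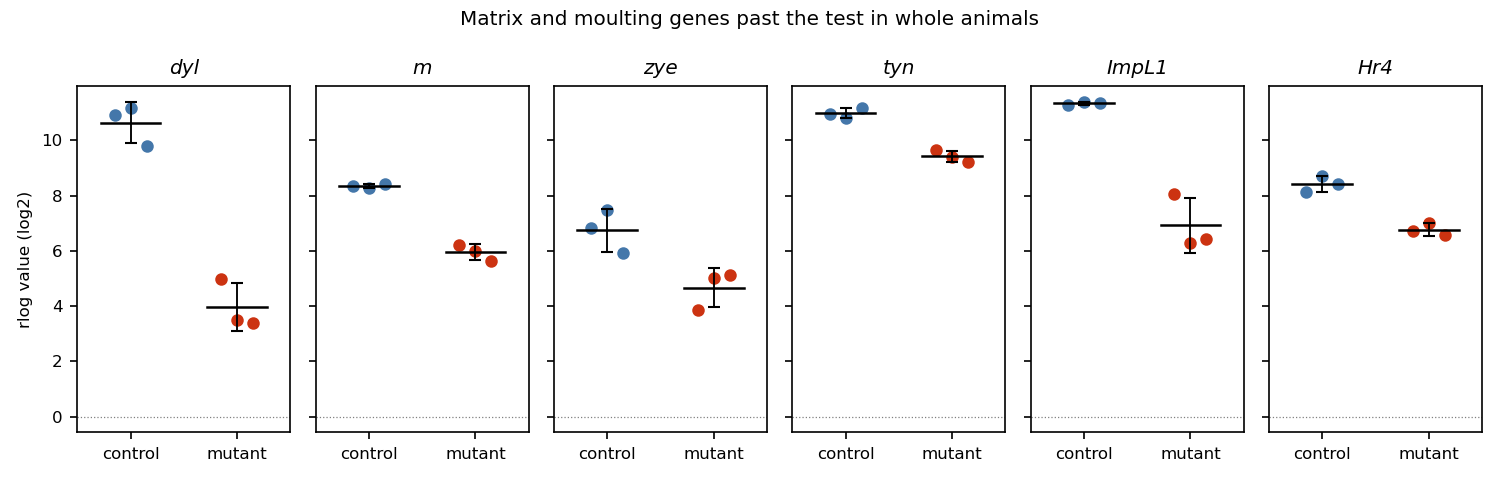
Rlog values (log2, vertical axis) of 4 apical matrix and 2 moulting genes past the test, in 3 control (blue) and 3 mutant (red) whole animal samples, with mean (line) and SD (bars). Every mutant lies below every control, and *dyl* has the largest difference, from a control range of 9.79 to 11.18 to a mutant range of 3.40 to 4.96.

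The fat body, which stores lipid and secretes haemolymph proteins, makes little cuticle. In controls, 64 of the 65 cuticle genes were lower in fat bodies than in whole animals, as were 46.8% of all genes. The exception was *Cpr49Ac*, with a mean of 11.58 in control fat bodies and 11.13 in control whole animals, a difference of 0.45 with a 95% interval from -1.33 to 2.22 (adjusted p = 0.63, limma). All 65 had passed the filter in whole animals, and only 11 reached the tested level in a fat body group. That choice favours genes high in whole animals, so nothing is read from the 64 against the share over all genes. Of the 65, 23 were below 0 in all 6 fat bodies. Those 23 differed by -0.13 to -0.11 between the genotypes, nearly the same amount for each. For this reason nothing is read from the 39 cuticle genes with every mutant fat body below every control, against 25.8% of all genes, and 1 lay above, against 14.2%.

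In fat bodies 3 cuticle genes fell in mutants and 1 rose, where over all genes 11.2% fell and 11.1% rose. Since only 11 of the 65 reached the tested level in a fat body group, most could hardly be called there. Nothing is read from these counts, nor from those of the treat test in fat bodies, against the shares over all genes. *Cpr49Ac* stood at 10.68, 11.02 and 13.05 in control fat bodies and at 5.53, 5.31 and 8.24 in mutant fat bodies. Every mutant was below every control, in spite of a wide spread in both groups. The log2 fold change was -5.22 (SE 0.80, adjusted p = 0.00086, limma), and this was the 1 cuticle gene past the treat test for a change of more than 1 (adjusted p = 0.0076, limma), as 1.42% of all genes were. With the fat bodies fitted alone the fall still passed the first test (adjusted p = 0.022) but not the treat test (adjusted p = 0.12, limma). No cuticle gene rose past it, where 1.76% of all genes did. In whole animals the same gene stood at 10.99, 11.50 and 10.91 in controls and at 10.23, 8.96 and 8.75 in mutants, so the log2 fold change was -1.82 (adjusted p = 0.43, limma). This change passed with each tissue fitted alone (adjusted p = 0.024) and with array weights (0.0086, limma). The 2 changes differed by -3.40, which did not pass (adjusted p = 0.091, limma). That difference between tissues passed for 11 cuticle genes, against 10.2% of all genes. Of these 11 genes 9 were below 0 in all 6 fat bodies, so that the count is not read as a difference in effect.

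The other genes that reached the tested level in a fat body group were *Cpr47Eg*, *Cpr49Ag*, *Cpr51A*, *Cpr65Ax2*, *Lcp4*, the 3 *Lcp65Ag* genes, *obst-A* and *obst-B*. The control fat body means of these were between 1.02 for *obst-B* and 5.06 for *Lcp65Ag1*, far under that of *Cpr49Ac*. *obst-A* stood at 4.15, 3.61 and 5.54 in control fat bodies and at 1.41, 4.79 and 3.33 in mutants, with overlapping groups (log2 fold change -1.25, adjusted p = 0.27, limma).

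*obst-B* rose in fat bodies. It stood at -0.02, -0.01 and 3.08 in controls and at 4.04, 4.55 and 5.03 in mutants, a difference of 3.52 on the rlog scale (SE 0.71, adjusted p = 0.0046, limma). With the fat bodies fitted alone the adjusted p was 0.066 (limma). In whole animals it stood between 8.11 and 9.04 in all 6 samples.

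*Cpr12A* differed by -1.90 (adjusted p = 0.0012, limma) and *Cpr65Ay* by -1.40 (adjusted p = 0.048, limma), both below the tested level in all fat bodies. *Cpr65Ay* lost its call under most alternatives, among them without fat body control replicate 7 (adjusted p = 0.13, limma). *Cpr51A*, named after its values were seen, stood at 4.13, 2.81 and 4.65 in control fat bodies and at 1.65, 1.46 and 3.32 in mutants, a difference of -1.72 that did not pass (adjusted p = 0.052, limma).

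Fat body control replicate 7 stood apart. It was the highest of the 3 control fat bodies for 48 of the 65 cuticle genes, where it was highest for 47% of all genes. Genes at the bottom of the scale had the same order, such as *obst-F* at -0.41, -0.40 and -0.38 in replicates 5, 6 and 7. For this reason nothing is read from the 48. Replicates 5 and 6 had 16 and 20 of the 65 genes at 1 or above, and replicate 7 had 26. The median level of the 13 epidermal and tracheal matrix genes was 3.70 in it, -0.09 and 0.92 in the other control fat bodies, and between -0.09 and 1.62 in the mutant fat bodies, with *zye*, *m* and *mey* below 0 in all 3 controls. The muscle markers had a median of 7.27 in it and 5.62 and 5.85 in the other controls, and the fat body markers 14.49 against 11.73 and 12.32. Without this sample *Cpr49Ac* still fell by 4.49 on the log2 scale (adjusted p = 0.0025, limma). The *obst-B* difference was then 4.55 (adjusted p = 1.9e-05, limma), but the control fat bodies left stood at -0.02 and -0.01. Values from few or no reads have almost no spread, so that p is no check of the *obst-B* rise.

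**Figure D5:**
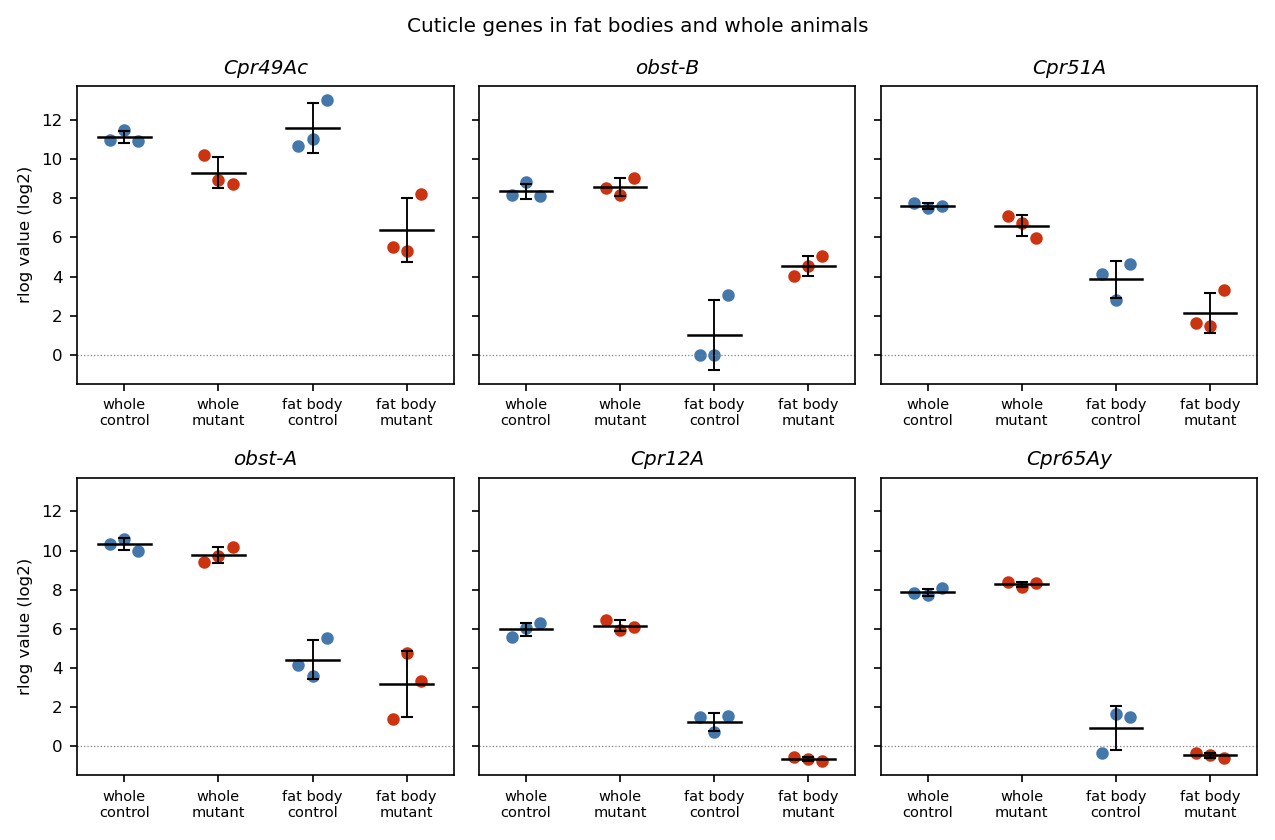
Rlog values (log2, vertical axis) of 6 cuticle genes in control (blue) and mutant (red) whole animals and fat bodies, 3 samples each, with mean (line) and SD (bars). *Cpr49Ac* is as high in control fat bodies as in whole animals and lower in mutant fat bodies, while the other 5 genes are lower in fat bodies than in whole animals.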

How the data were processed

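RNA was sequenced as stranded poly-A libraries, paired-end. The authors estimated transcript abundance with Salmon 1.10.2 against BDGP6.46 and the Ensembl v110 annotation, collapsed it to gene level with tximport, and deposited log2 values from the rlog function of DESeq2 1.42.0, which shrinks low genes toward their mean. The deposited values keep neither counts nor depth, and precision rests on the 3 replicates of each group; exact permutation of 3 against 3 cannot give a p below 0.1.

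Values were used as deposited, with no further normalization. One mean per group was fitted to all 12 samples with limma 3.58.1 (R 4.3.3) with a variance trend, for genes with a group mean of at least 3.32, and p-values were adjusted by Benjamini-Hochberg over 10069 genes, with treat for a log2 fold change of 1. Positions are from the Ensembl 115 annotation of BDGP6.54, which has the same Release 6 sequence. Members and gene lists were chosen with earlier results of these data known. Named genes were those past the treat test in either tissue, the largest called changes, and all tested obst, Edg and Pcp genes with Lcp1 to Lcp4; others are said to be chosen after their values were seen. Alternatives changed the filter, the samples fitted, weights, variance trend, scaling, threshold and replicates.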

Additional observations from a re-analysis of the deposited data

Results flagged for a closer look

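The interaction term of genotype and tissue passed an adjusted p of 0.05 for 11 cuticle genes (limma), as for 10.2% of all genes. For most it restates the whole animal change, since the fat body values were at the bottom of the scale, and it shows no difference in effect between tissues. The change in fat bodies minus that in whole animals was 6.09 for *Cpr23B*, 5.66 for *Cpr66Cb*, 5.10 for *Cpr65Eb*, 5.06 for *Cpr30F*, 3.79 for *Cpr66D*, 3.57 for *Ccp84Ac* and 3.11 for *Ccp84Af*, the 7 genes that fell in whole animals. It was -1.84 for *Lcp1*, -1.52 for *Cpr100A* and -1.33 for *Cpr11B*, the 3 that rose there. Of these 10 genes, 9 were below 0 in all 6 fat bodies, where a change could not have been measured, and *Cpr65Eb* was above 0 only in fat body control replicate 7, at 2.62. For *Cpr12A*, which was below the tested level in fat bodies, it was -2.10.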

How the results depend on the processing

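The 7 falls in whole animals became 12 with no filter, 2 with a filter at the log2 of 50 and 12 with a replicate block in whole animals alone, and ranged from 7 to 8 with 1 sample left out. Those past the treat test (7) became 2 with that filter, 3 with the replicate block and 4 at an adjusted p of 0.005, and ranged from 5 to 7. The 3 rises became 5 with each tissue fitted alone, 5 with the replicate block and 0 at 0.005, and ranged from 1 to 4, with 1 left without whole animal control replicate 3 or mutant replicate 3. In fat bodies, falls (3) ranged from 2 to 4. Falls past treat (1) became 0 with tissues fitted alone and 0 at 0.005, and ranged from 1 to 2, with 2 without control replicate 5. Rises (1) became 0 with tissues fitted alone and ranged from 1 to 3, with 3 without control replicate 6 and 2 without mutant replicate 1 or 4. Rises past treat (0) became 1 with array weights and 1 with quantile normalization, and ranged from 0 to 1, with 1 without control replicate 7. Interactions (11) became 6 with the higher filter and 5 at 0.005, and ranged from 8 to 12; genes lower in control fat bodies (64) ranged from 63 to 64. The higher filter tests fewer genes; otherwise the cause was not tested.

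Signs turned for *Lcp2* in whole animals (0.49 without control replicate 3, 0.13 without mutant replicate 2, range -1.13 to 0.49), *obst-B* there (-0.014 without mutant replicate 3, range -0.014 to 0.44), *Pcp* there (-0.027 without control replicate 2, range -0.027 to 0.46), and *Lcp4* in fat bodies (0.19 with array weights, 0.25 without control replicate 7, range -0.91 to 0.25), none of them called. With the replicate block 17 cuticle genes were called in whole animals in place of 10, the 10 among them and *Cpr35B*, *Cpr47Ed*, *Cpr47Eg*, *Cpr49Ac*, *Cpr51A*, *Cpr64Ad* and *Lcp65Ag2* besides. The numbers did not pair the whole animals: deviations of same-numbered samples correlated at -0.0214, -0.0465 and -0.126 over all genes tested and at -0.0804, 0.255 and 0.303 over the cuticle genes, and 0 of 3 controls matched their own number best. Fat bodies of the 2 genotypes share no number, so no paired analysis was possible there. Depth is unknown, so nothing can be said of genes below 0.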
